A study of Mus musculus with 5 samples.

Results

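Disallowed genes are active in most tissues and kept nearly silent in mature pancreatic beta cells. The expression of 10 of them was followed in sorted mouse islet cells: Ldha, Slc16a1, Hk1, Igfbp4, Pdgfra, Oat, Cxcl12, Smad3, Maf and Acot7. They were chosen by name as genes normally silenced in mature beta cells, and they are 10 of the 19938 genes that the array annotation names singly. Each gene was read from the probe set annotated to its symbol alone, or from the one with the highest mean signal where there were several. The Flattop-positive cells (3 arrays) and the Flattop-negative cells (2 arrays) were separated by flow cytometry from pancreatic islets. All donors were C57BL/6 mice, 8 to 12 weeks old, untreated, of undetermined sex and heterozygous for Flattop with the genotype FVR/+, so every sample carries that allele. Each array holds a pool from 4 to 6 mice, and the labels do not state whether a positive and a negative pool came from the same animals. Flattop is the protein of Cfap126, an effector of planar cell polarity, and the series title speaks of mature and proliferative beta cells.

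Beta cells couple blood glucose to insulin release through mitochondrial oxidation. Pyruvate made from glucose goes mainly to the mitochondria. Lactate dehydrogenase A (Ldha) and the monocarboxylate transporter MCT1 (Slc16a1) are the classic disallowed pair: while both stay low, little pyruvate is turned into lactate, and pyruvate or lactate from exercising muscle does not enter the cell and release insulin. Hk1, a hexokinase of high affinity, would phosphorylate glucose even when blood glucose is low. The other genes act in mitochondrial amino acid metabolism (Oat), fatty acyl-CoA hydrolysis (Acot7), transcription (Smad3, Maf) and signalling between cells (Igfbp4, Pdgfra, Cxcl12).

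The promoters of the lactate pair and of Igfbp4 are shown, those of the pair because its silencing is the best known and that of Igfbp4 because its groups lay farthest apart. The sequences are the 250 bases before the first listed transcription start, from RefSeq on GRCm38.p6, all on the + strand and written from 5′ to 3′. Capitals mark CACGTG (the palindromic E-box), CACGT (the hypoxia response core ACGTG read on the opposite strand) and TGACGTCA (the full cyclic AMP response element). They lie at chr7:46845554-46845803 for Ldha, chr3:104638414-104638663 for Slc16a1 and chr11:99040994-99041243 for Igfbp4.
Ldha: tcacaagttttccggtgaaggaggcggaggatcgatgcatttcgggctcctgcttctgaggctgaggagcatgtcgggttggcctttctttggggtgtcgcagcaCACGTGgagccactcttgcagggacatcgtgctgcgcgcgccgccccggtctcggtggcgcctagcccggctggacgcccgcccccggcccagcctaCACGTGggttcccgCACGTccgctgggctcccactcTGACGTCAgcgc
Slc16a1: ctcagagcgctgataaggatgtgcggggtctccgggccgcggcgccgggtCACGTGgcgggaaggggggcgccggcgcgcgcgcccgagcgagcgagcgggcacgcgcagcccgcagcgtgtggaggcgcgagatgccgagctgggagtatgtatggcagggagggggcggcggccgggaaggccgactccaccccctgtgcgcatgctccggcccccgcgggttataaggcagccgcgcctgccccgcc
Igfbp4: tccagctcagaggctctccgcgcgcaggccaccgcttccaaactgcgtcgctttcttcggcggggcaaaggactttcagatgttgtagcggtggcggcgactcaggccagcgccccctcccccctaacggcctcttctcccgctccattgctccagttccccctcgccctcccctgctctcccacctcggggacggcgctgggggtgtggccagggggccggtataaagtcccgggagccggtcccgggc

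In the Ldha promoter CACGTG starts 145 and 48 bases before the transcription start, a further CACGT starts 34 bases before it and TGACGTCA 12 bases before it. The Slc16a1 promoter holds 1 CACGTG, 200 bases before the start, and the Igfbp4 window holds none of these motifs. Of all 32851 mouse promoters in the same table, 6.02% hold CACGTG, 16.6% hold ACGTG on either strand, which every CACGTG contains, and 1.55% hold TGACGTCA. The Slc16a1 window holds 37 CpG dinucleotides, more than 97.8% of all promoters. The Ldha window holds 25 and the Igfbp4 window 22, more than 89.3% and 85.2% of promoters. Of the 10 genes, 9 had a promoter in the table (11 starts in all), and none of these 11 windows held the AP-1 motif TGANTCA or the heat shock motif GAANNTTC, which 6.75% and 6.69% of all promoters hold on either strand.

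Signals were compared with a floor taken from olfactory receptor genes, most of which are silent outside the nose, although a few have been reported in beta cells. The floor was the 95th percentile of the 1027 olfactory receptor genes on the same array. It was at a log2 signal of 4.29, 4.44 and 4.45 on Flattop-positive replicates 1, 2 and 3, against 4.75 and 4.86 on Flattop-negative replicates 1 and 2. It was thus lower on every positive array, and a gene had to be brighter on a negative array to pass it. Of the olfactory receptor genes, 21 passed it on all 5 arrays. Of all genes, 63.1%, 61.6% and 62.6% passed the floor on the positive arrays, against 57.2% and 59.2% on the negative arrays. Of the 10 disallowed genes, 6, 3 and 6 passed it on the positive arrays in the same order, against 4 and 7 on the negative arrays. Only 2 of the 10 (Hk1 and Smad3) passed on all 5 arrays, and the annotation of that Hk1 probe set is shared with another gene, as described with Hk1. Pdgfra and Slc16a1 passed on none, and the other 6 passed on 2 to 4 arrays. Over all genes, 50.6% passed on all 5 arrays and 30.9% on none.

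The arrays carried RNA of several endocrine cell types, and some stood apart from the rest of their group. Ins2 lay between 12.64 and 13.08 on the positive arrays and at 12.37 and 13.04 on the negative arrays, while Gcg, the glucagon gene of alpha cells, lay between 12.81 and 13.17, against 13.06 and 13.39. The 15 measured immediate early and heat shock genes had mean log2 signals of 7.60, 6.41 and 9.78 on the positive arrays, against 6.59 and 9.69 on the negative arrays, so Flattop-positive replicate 3 and Flattop-negative replicate 2 were the high ones. The acute phase and chemokine list had the same high arrays, with means of 5.57, 5.57 and 6.82, against 5.36 and 6.84. Macrophage and leukocyte markers were highest on Flattop-negative replicate 2 (mean 5.35, against 4.30 to 4.46 on the other 4 arrays), as were stellate and mesenchymal markers (5.29 against 4.21 to 4.54). Of the 17 macrophage and leukocyte markers, 4 passed the floor on all 5 arrays (Csf1r, Cd68, C1qa and Fcer1g) and 6 on none, Ptprc, Adgre1 and Itgam among them. Of the 18 mesenchymal markers, 7 passed on all 5 (Col1a1, Col1a2, Col5a1, Col6a1, Thy1, Vim and Sparc) and 6 on none, Pdgfrb, Lum and Des among them. All 15 measured beta cell identity genes had the higher mean in the positive arrays, with array means of 9.60, 9.64 and 9.69, against 8.52 and 8.54. The part of any of these in the results below was not tested.

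**Figure D1:**
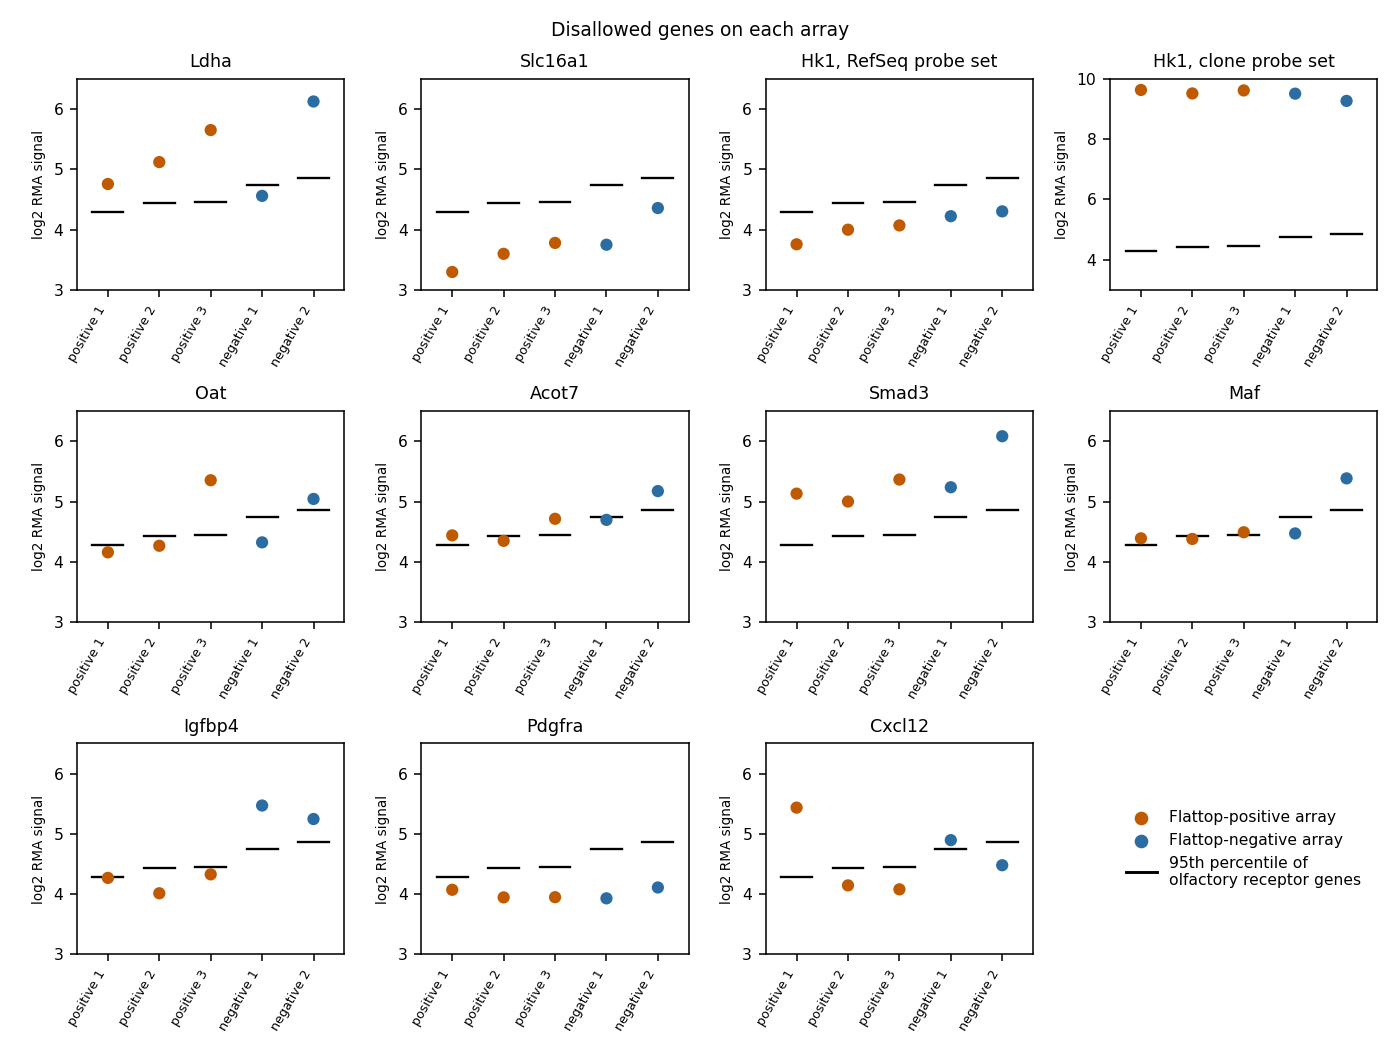
Log2 signal of each disallowed gene on each array, with Flattop-positive arrays left of Flattop-negative arrays and the olfactory receptor floor of each array marked. Smad3 is above the floor on all 5 arrays, Slc16a1 and Pdgfra on none, and Igfbp4 is above it only on the 2 negative arrays; Hk1 is drawn by both of its probe sets.

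In limma none of the 10 reached an adjusted p of 0.05, and neither did any other gene (0% of 19938 called; 2760 genes had an unadjusted p under 0.05). At the looser threshold of an unadjusted p under 0.05 and at least a 1.5-fold difference, Igfbp4 was lower in Flattop-positive cells, 1 of 10 against 3.74% of all genes in that direction, and no gene was higher, against 8.08% of all genes. The groups did not overlap for 1 gene lower in positive cells (Igfbp4), where 21% of all genes did so, and for 1 gene higher (Hk1), where 13.7% did. Each is 10% of the genes, below the share among all genes. The mean log2 signal of 9 genes was lower in the positive arrays and that of 1 was higher, with a median difference of -0.30. The median was -0.10 over all genes and -0.27 over the olfactory receptor genes, of which 42.1% were lower in positive cells without overlap. The median of the disallowed genes was thus close to that of the genes that set the floor. Centring each array on those genes moves every difference by the same amount, so it adds no separate evidence. The median of the disallowed genes was then 0.00 and that of all genes 0.20.

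**Figure D2:**
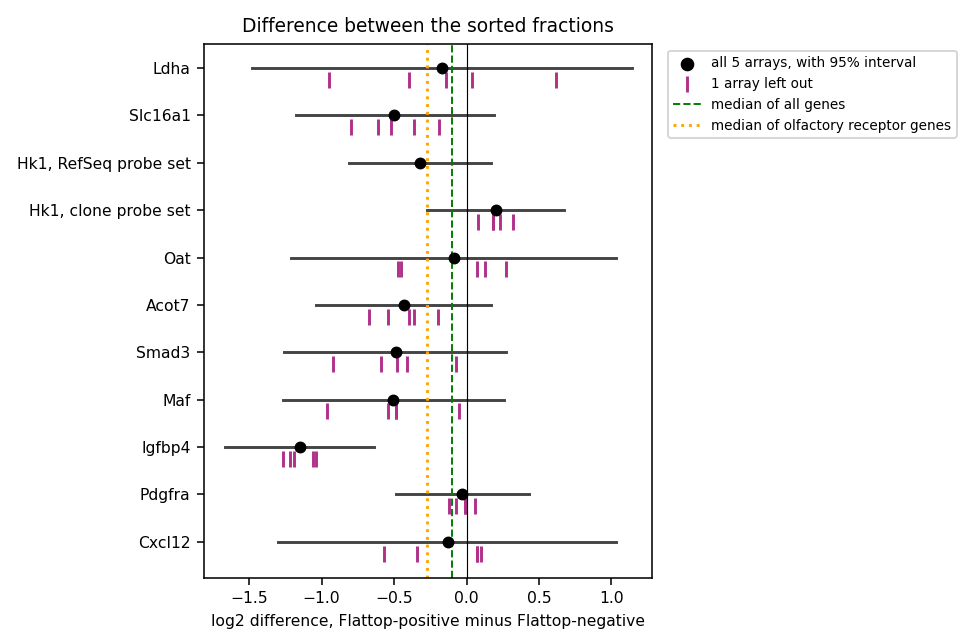
Difference in log2 signal, Flattop-positive minus Flattop-negative, for each gene with its 95% confidence interval from limma (black; 3 against 2 arrays) and the values with 1 array left out (vertical ticks), beside the medians of all genes and of olfactory receptor genes. The interval of Igfbp4 alone does not cross 0.

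Ldha, which turns pyruvate into lactate, had log2 signals of 4.76, 5.12 and 5.65 on Flattop-positive replicates 1, 2 and 3, against 4.56 and 6.13 on Flattop-negative replicates 1 and 2. The negative arrays were the lowest and the highest of the 5, so the positive values all fell between them, and Flattop-negative replicate 1 was the one array on which Ldha did not pass the floor. Ldha averaged 5.18 ± 0.45 in positive cells and 5.34 ± 1.11 in negative cells (SD, n = 3 and 2). The difference was -0.17 ± 0.52 (SE; 95% interval -1.48 to 1.14; limma adjusted p = 0.894), and without Flattop-negative replicate 2 it was 0.62. In bulk samples such as these, fewer cells that express a gene and less RNA per cell cannot be told apart.

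Slc16a1, the plasma membrane carrier of lactate and pyruvate, had signals of 3.30, 3.60 and 3.78 on the positive arrays, against 3.75 and 4.36 on the negative arrays. All 5 values lay below the floor, by at least 0.50 on the log2 scale, and the groups overlapped. Its difference of -0.50 ± 0.28 (interval -1.18 to 0.19; adjusted p = 0.462) therefore compares values in the range of the olfactory receptor genes. It was -0.80 without Flattop-negative replicate 1 (unadjusted p = 0.0327) and -0.19 without Flattop-negative replicate 2. Thus, of the lactate pair, the enzyme was measured above the floor on 3 of 3 positive and 1 of 2 negative arrays, and the carrier on no array.

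The genes around that step were mixed. Of 16 measured genes of lactate and pyruvate handling, 8 had the higher and 8 the lower mean in positive cells (median 0.05), none passed an adjusted p of 0.05, and 4 passed the looser threshold, all of them higher in positive cells. These were Pdha1, a subunit of pyruvate dehydrogenase (1.10 ± 0.24, SE; adjusted p = 0.220), Dlat, another subunit of that complex (0.61 ± 0.23), Pdk2, the kinase that inhibits it (1.18 ± 0.31), and Pcx, pyruvate carboxylase (1.07 ± 0.30). Pdha1 had signals of 7.35, 7.33 and 7.77 on the positive arrays, against 6.21 and 6.54 on the negative arrays. The groups stood clear of each other. Dlat fell outside the looser threshold with any 1 array other than Flattop-negative replicate 1 left out (0.34 without Flattop-negative replicate 2), and Pcx without Flattop-negative replicate 1 (0.95, unadjusted p = 0.0658).

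Ldhb, whose subunit favours the reverse reaction, had signals of 6.42, 6.14 and 6.37 on the positive arrays, against 6.05 and 5.26 on the negative arrays. It was higher on each positive array than on either negative one, unlike Ldha, but the difference did not pass the test (0.65 ± 0.29; adjusted p = 0.396). Slc16a3, the carrier MCT4 of lactate-exporting cells, had 4.56, 4.47 and 4.52 on the positive arrays, against 4.56 and 5.01 on the negative arrays, close to the floor on each. Slc16a7, the carrier MCT2, passed the floor on Flattop-positive replicate 3 (4.79) and Flattop-negative replicate 2 (5.80) and on no other array. These are the arrays with the highest immediate early signal, whose part was not tested.

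Hk1, the high-affinity hexokinase, was higher in positive cells by the probe set with the highest mean, and lower by its other one. The first (10414661) had signals of 9.63, 9.52 and 9.62 on the positive arrays, against 9.51 and 9.27 on the negative arrays, far above the floor throughout. The groups just failed to overlap, and the difference was 0.20 ± 0.19 (interval -0.27 to 0.67; adjusted p = 0.630). That probe set is annotated by 1 GenBank clone and by no RefSeq transcript. The annotation lists the same clone in 16 further probe sets that name Hk1 together with Rpl17, a ribosomal protein gene, and whose signals ran from 9.46 to 11.81. Which RNA the probes bind was not tested.

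The other probe set (10369541) is annotated by RefSeq transcripts of Hk1. It had signals of 3.76, 4.00 and 4.07 on the positive arrays, against 4.22 and 4.30 on the negative arrays, and lay below the floor on all 5. The groups did not overlap here either, with the positive arrays the lower ones, and the difference was -0.32 ± 0.20 (interval -0.81 to 0.17; adjusted p = 0.490). With Hk1 read in this way, all 10 genes had the lower mean in positive cells (median -0.38), and Smad3 alone passed the floor on all 5 arrays. Of the 10, 2 were lower without overlap, where 21% of all genes were. The olfactory receptor genes had a median of -0.27, so a difference of this size was common among genes at the floor.

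**Figure D3:**
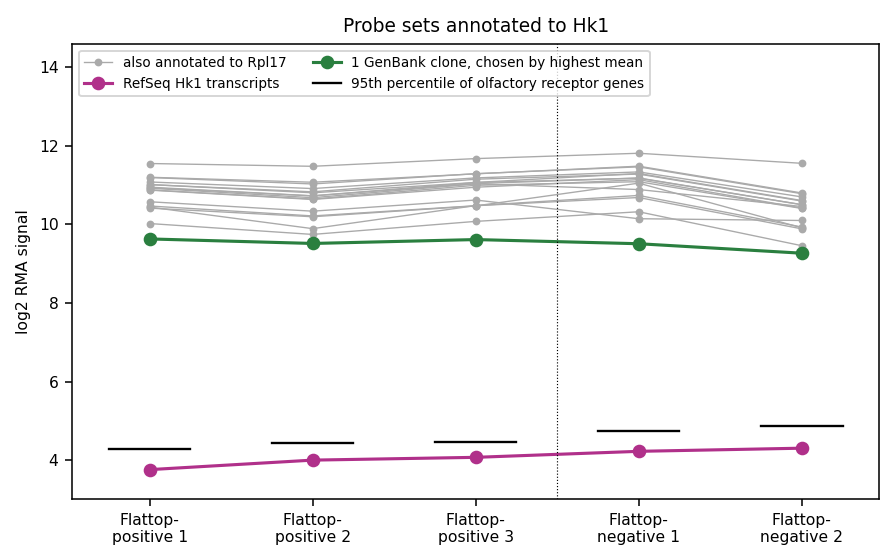
Log2 signals, on each array, of the 18 probe sets whose annotation names Hk1, with the floor. The RefSeq probe set lies below the floor on every array, while the one chosen by highest mean and the 16 shared with Rpl17 lie above a log2 signal of 9.

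The other hexokinases lay below the floor. Hk2, an insulin-regulated hexokinase of muscle and fat, had signals of 3.46, 3.83 and 4.01 on the positive arrays, against 4.24 and 4.41 on the negative arrays, with no array above its floor. The other 3 genes measured in that list, Hk3 and Hkdc1 among them, were below it on all 5 arrays too, and the 4 genes, all with lower means in positive cells, had a median difference of -0.32.

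Oat, the mitochondrial aminotransferase that turns ornithine into a precursor of proline and glutamate, had signals of 4.16, 4.27 and 5.35 on the positive arrays, against 4.32 and 5.04 on the negative arrays. Flattop-positive replicate 3 and Flattop-negative replicate 2 were the high arrays and the only ones above the floor, and the groups overlapped. The difference was -0.09 ± 0.45 (interval -1.21 to 1.03; adjusted p = 0.936). The same 2 arrays were highest for the immediate early and acute phase lists, and the part of those lists was not tested.

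Of the 9 measured genes of ornithine, arginine and proline metabolism, 3 had higher and 6 lower means in positive cells (median -0.22), and none passed an adjusted p of 0.05. Aldh18a1, which makes the proline precursor from glutamate, passed the looser threshold on the higher side, with signals of 8.35, 8.28 and 7.68 on the positive arrays, against 6.25 and 7.15 on the negative arrays (1.40 ± 0.36; adjusted p = 0.253). All positive values exceeded both negative ones. Arg2, mitochondrial arginase, passed it on the lower side (-0.61 ± 0.18; adjusted p = 0.279), with the floor passed on Flattop-negative replicate 1 alone, and did not pass without Flattop-positive replicate 1 or 3 or, at -0.54, without Flattop-negative replicate 1. Odc1, which commits ornithine to polyamines, averaged 10.14 ± 0.95 in positive and 10.48 ± 0.63 in negative cells (adjusted p = 0.803).

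Acot7, which hydrolyses long-chain acyl-CoA and is best known from neurons, had signals of 4.44, 4.35 and 4.71 on the positive arrays, against 4.70 and 5.17 on the negative arrays. Flattop-negative replicate 2 was the highest, and Flattop-positive replicate 3 just exceeded Flattop-negative replicate 1. The difference was -0.43 ± 0.24 (interval -1.04 to 0.17; adjusted p = 0.462). It ranged from -0.67 without Flattop-negative replicate 1 (unadjusted p = 0.0362) to -0.20 without Flattop-negative replicate 2.

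Among 11 other acyl-CoA thioesterases, 3 had higher and 8 lower means in positive cells (median -0.42), and none passed an adjusted p of 0.05. By the looser threshold Acot11 was higher (0.79 ± 0.26), and Acot3 (-0.87 ± 0.22), Acot9 (-0.84 ± 0.32) and Acot10 (-0.67 ± 0.19) were lower, with adjusted p from 0.253 to 0.348. Acot3 and Acot10 lay below the floor on all 5 arrays. Acot9, a mitochondrial enzyme, was above it on all 5, with 6.27, 5.57 and 5.87 on the positive arrays, against 6.39 and 7.11 on the negative arrays, and its difference was -0.48 without Flattop-negative replicate 2. With 1 array left out, Acot9 failed the looser threshold without Flattop-negative replicate 2 and without Flattop-positive replicates 2 and 3, Acot11 without any array other than Flattop-positive replicate 3, and Acot10 without Flattop-positive replicate 2.

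Smad3, which carries signals of TGF-beta and activin receptors to the nucleus, had signals of 5.13, 5.0 and 5.37 on the positive arrays, against 5.24 and 6.08 on the negative arrays. It passed the floor on every array. Flattop-negative replicate 2 stood above the other 4, while Flattop-negative replicate 1 lay among the positive values. The difference was -0.49 ± 0.31 (interval -1.26 to 0.27; adjusted p = 0.494).

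Maf (c-Maf), a transcription factor that activates the glucagon gene in alpha cells, had signals of 4.39, 4.38 and 4.49 on the positive arrays, against 4.47 and 5.39 on the negative arrays. The pattern was that of Smad3, with Flattop-negative replicate 2 alone standing out. The positive values lay close to their floors (0.11, -0.06 and 0.04 relative to them), and the negative ones at -0.27 and 0.53. The difference was -0.51 ± 0.31 (interval -1.27 to 0.26; adjusted p = 0.485).

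Both differences rested on that array. Without Flattop-negative replicate 2 they were -0.07 for Smad3 and -0.05 for Maf. With it as the only negative array they were -0.92 (unadjusted p = 0.0126) and -0.96 (unadjusted p = 0.00381), where its spread is assumed to be that of the positive arrays and where 11% of all genes were lower by the looser threshold. It is the array with the highest macrophage, mesenchymal, endothelial and alpha cell marker means, the last at 7.78, against 6.78, 6.98 and 7.16 on the positive arrays and 6.91 on Flattop-negative replicate 1. Their part was not tested.

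Other genes of the TGF-beta and SMAD list (16 measured) had lower means in positive cells in 11 cases and higher ones in 5 (median -0.28), and none passed either threshold. Smad2, which shares the receptors with Smad3, had a difference of 0.07 ± 0.34, and Smad4, the partner of both, -0.32 ± 0.37. The receptors Tgfbr1 and Tgfbr2 had differences of 0.29 ± 0.38 and 0.03 ± 0.30. Mafa, the insulin gene activator of mature beta cells, had signals of 5.52, 5.99 and 5.95 on the positive arrays, against 4.51 and 5.46 on the negative arrays. It was thus higher on each positive array, opposite to Maf in sign, but did not pass either threshold (0.84 ± 0.34; adjusted p = 0.365). The 5 measured MAF relatives, 3 higher and 2 lower with none past either threshold, had a median of 0.24.

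Igfbp4 had the largest difference of the 10 genes. It encodes a secreted protein that binds insulin-like growth factors and holds them from their receptor until the protease PAPP-A cleaves it. Its signals were 4.27, 4.02 and 4.33 on the positive arrays, against 5.47 and 5.25 on the negative arrays. Both negative arrays were above the floor and all 3 positive arrays below it, replicate 1 by a margin of -0.02, with a gap of 0.92 between the groups. Igfbp4 averaged 4.20 ± 0.17 in positive cells and 5.36 ± 0.16 in negative cells (SD, n = 3 and 2). With the positive arrays set to their floors, the mean of the negative arrays was 1.95-fold higher. That value leaves out the spread between arrays and the higher floors of the negative arrays.

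The fitted difference of Igfbp4 was -1.15 ± 0.21 (SE; interval -1.67 to -0.64), with an unadjusted p of 0.00179 and an adjusted p of 0.199 in limma. It stayed past the looser threshold in all 16 alternatives, from -1.33 to -0.85, with adjusted p from 0.0636 to 0.804. With each array centred on its olfactory receptor genes it was -0.85 (unadjusted p = 0.0101). The 2 negative arrays were alike and Flattop-positive replicate 3 lay with the other positive arrays. Several markers of other cell types separated the groups too. Smarca1, of the alpha cell list, had 5.53, 5.42 and 5.59 on the positive arrays, against 7.69 and 7.09 on the negative arrays. Cela3b, an acinar elastase, had 4.21, 4.53 and 4.42, against 5.64 and 5.16. Other genes of these lists did not: Gcg, Cpa1 and Ctrb1 overlapped between groups, and Slc7a2 of the alpha cell list was higher on every positive array. Of the 9 measured alpha cell genes, 7 had lower and 2 higher means in positive cells. Of the 11 measured acinar genes, 10 had lower means and 1 a higher mean. Beta cell identity means were higher on the positive arrays (9.60 to 9.69, against 8.52 and 8.54), and mesenchymal means were 4.21, 4.28 and 4.54, against 4.50 and 5.29. The part of these cell types, and of the immediate early signal, in the Igfbp4 difference was not tested.

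None of the 17 measured genes of the IGF axis passed either threshold, with 6 higher and 11 lower in positive cells (median -0.11). Igf1r, the receptor, had signals of 7.92, 8.32 and 6.71 on the positive arrays, against 7.15 and 6.53 on the negative arrays (0.81 ± 0.52; adjusted p = 0.503). The groups overlapped through Flattop-positive replicate 3. Igfbp5 and Igf2 had differences of -0.02 ± 0.31 and 0.17 ± 0.22.

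Pdgfra, the receptor for PDGF-A that marks mesenchymal cells in the pancreas, had signals of 4.07, 3.95 and 3.95 on the positive arrays, against 3.93 and 4.11 on the negative arrays. The 5 values lay close together and all below the floor. The difference was -0.03 ± 0.18 (interval -0.49 to 0.43; adjusted p = 0.949), the smallest of the 10 genes. Pdgfrb, the other receptor, was also below the floor on each array (-0.43 ± 0.23). Of the ligands, Pdgfa was well above it, with 7.98, 6.92 and 6.91 on the positive arrays, against 6.30 and 7.39 on the negative arrays. The 5 genes of the PDGF list, 2 higher and 3 lower, had a median of -0.07 and none passed either threshold.

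Cxcl12, a chemokine of stromal cells that attracts cells bearing Cxcr4, was highest on Flattop-positive replicate 1. Its signals were 5.44, 4.15 and 4.08 on the positive arrays, against 4.90 and 4.48 on the negative arrays. Replicate 1 of each group was the high one and the only one above the floor. The difference was -0.13 ± 0.47 (interval -1.30 to 1.03; adjusted p = 0.906). The receptor Cxcr4 had 4.04, 4.47 and 4.65 on the positive arrays, against 4.16 and 5.16 on the negative arrays, and the scavenger receptor Ackr3 was below the floor on all 5. The 3 genes of the CXCL12 list, 2 higher and 1 lower, had a median of 0.01, and none passed either threshold.

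The 10 genes did not vary together from array to array. Flattop-negative replicate 2 gave the highest signal for 6 of them (Ldha, Slc16a1, Pdgfra, Smad3, Maf and Acot7), and for 7 with Hk1 read by its RefSeq probe set. That array also had the highest median over all genes, 5.23 against 5.04 to 5.12 on the other arrays, and the highest floor. The share of all genes that were highest on it is not given here, so the count is not particular to these genes. Relative to each array's own floor, Flattop-negative replicate 2 was the highest for 5. The exceptions were Oat (Flattop-positive replicate 3), Igfbp4 (Flattop-negative replicate 1) and 3 genes highest on Flattop-positive replicate 1. Those were Cxcl12, Hk1 by the first probe set, and Pdgfra, which was below the floor on every array. Flattop-positive replicate 2 was the highest for none. The negative pair differed by 1.57 for Ldha, 0.91 for Maf, 0.85 for Smad3 and 0.72 for Oat. It differed by 0.61 for Slc16a1, 0.48 for Acot7 and 0.42 for Cxcl12. The smallest distances were 0.24 for Hk1 (0.08 by its RefSeq probe set), 0.22 for Igfbp4 and 0.18 for Pdgfra.

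**Figure D4:**
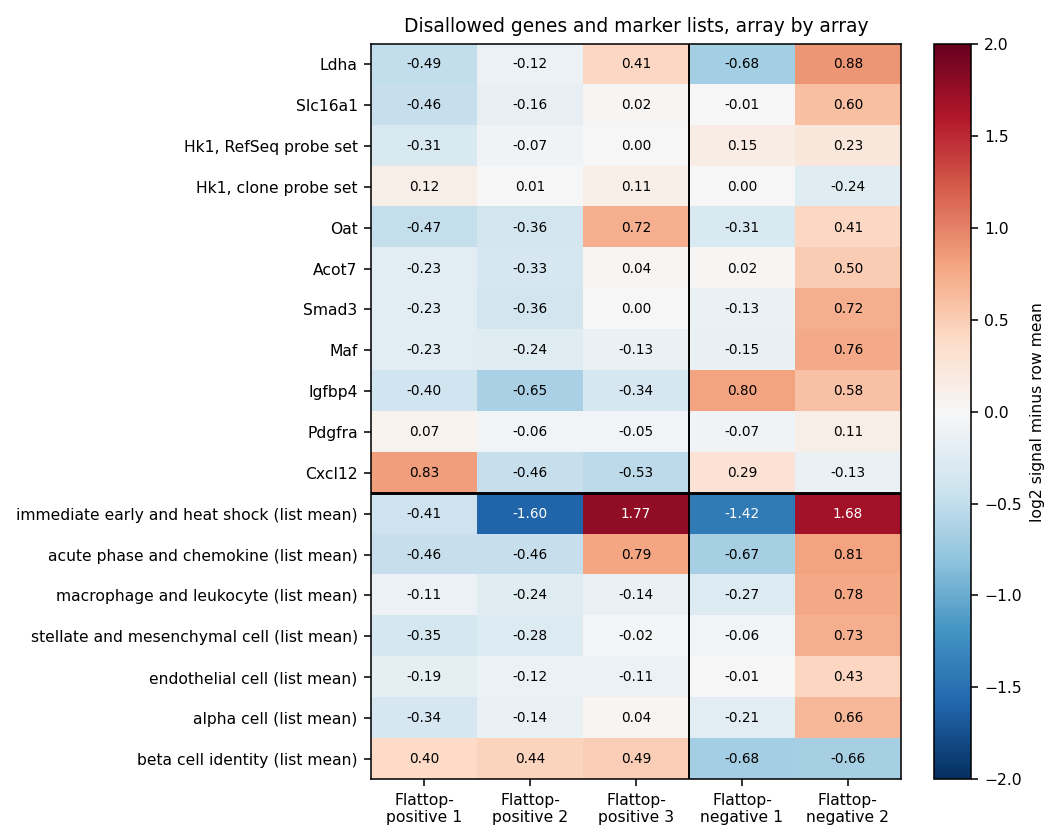
Log2 signal of each disallowed gene on each array relative to its own mean over the 5 arrays, with the means of marker lists treated in the same way, Flattop-positive arrays on the left. Ldha and Oat are highest on Flattop-positive replicate 3 and Flattop-negative replicate 2, Smad3 and Maf on Flattop-negative replicate 2 alone, and Igfbp4 on both negative arrays.

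For the 6 genes that ranged over at least 1 log2 unit and passed the floor somewhere, the most similar profiles were sought among 17153 named genes, as the root mean square difference of signals centred on each gene's mean over the 5 arrays. The closest to Ldha were Tspan9 (0.074), Amotl2 (0.080) and Pim3 (0.099). The closest to Smad3 were Styxl1 (0.026), Clec2h (0.029) and Col6a3 (0.039), the first 2 below the floor on all arrays, and the closest to Maf were Noxa1, Gpat3 and Slc26a10 (0.027 to 0.033). Both sets are high on Flattop-negative replicate 2 alone. Oat was nearest to Lgmn, Gja1 and Prdm1 (0.053 to 0.061), and Cxcl12 to Elovl4, Pigr and Pdlim3 (0.085 to 0.101). Igfbp4 was nearest to Bmp8b (0.081), Slc6a12 (0.135) and Rad54l (0.136). With so many candidates and 5 arrays, close profiles are easily found.

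The 15 measured genes of a further list of disallowed or near-silent genes had a median difference of -0.29, with 3 higher and 12 lower in positive cells, close to the 10 genes and to the olfactory receptor genes. None passed an adjusted p of 0.05. Tgm2, tissue transglutaminase, had signals of 4.45, 4.13 and 4.48 on the positive arrays, against 4.81 and 5.21 on the negative arrays, and Dcn, the matrix proteoglycan decorin, 3.85, 3.84 and 3.93, against 4.21 and 4.97. Both were lower by the looser threshold (-0.65 ± 0.23 and -0.72 ± 0.27), Dcn with the floor passed on Flattop-negative replicate 2 alone. Without that array the differences were -0.45 and -0.34, and neither passed. With 1 array left out, each passed only where that array was Flattop-negative replicate 1. Mgst1, a microsomal glutathione transferase, was below the floor on every array. Cat, catalase, was high on Flattop-positive replicate 3 (5.85) and Flattop-negative replicate 2 (5.76), against 4.48 to 4.75 on the others, much like Oat.

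Genes of a list of repressors and chromatin regulators were mostly well above the floor in both groups. The list also holds Kdm6a, Kdm6b, Tet1, Tet2 and Tet3, which act against silencing marks. Of 24 measured repressors and chromatin genes, 15 had higher and 9 lower means in positive cells (median 0.14), none passed an adjusted p of 0.05 and 2 passed the looser threshold. Hdac3, a histone deacetylase of corepressor complexes, had signals of 6.56, 6.73 and 6.56 on the positive arrays, against 5.60 and 5.06 on the negative arrays (1.29 ± 0.23; adjusted p = 0.203). Its groups lay well apart. Hdac1 differed by 0.77 ± 0.21, but by 0.30 after cyclic loess, where it no longer passed. Dnmt3a, the DNA methyltransferase that silences Ldha and Hk1 in maturing mouse beta cells, had 7.79, 7.77 and 7.95 on the positive arrays, against 6.08 and 8.92 on the negative arrays. The negative pair again enclosed the positive values. Rfx6, a repressor of disallowed genes in adult mouse beta cells, overlapped between groups (0.54 ± 0.56), as did the polycomb methyltransferase Ezh2 (0.05 ± 0.45), and Rest was below the floor on all 5 arrays.

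Ldha is also a target of the hypoxia-inducible factors, which bind the ACGTG core. Of 12 measured genes of that pathway, 7 had higher and 5 lower means in positive cells (median 0.34, but 0.03 after cyclic loess), and none passed an adjusted p of 0.05. Egln1, the oxygen sensor that marks the factor for degradation, was higher by the looser threshold (1.01 ± 0.26; adjusted p = 0.252). Aldoa, the glycolytic aldolase, was so too (1.65 ± 0.59; adjusted p = 0.326), with 11.07, 10.64 and 10.45 on the positive arrays, against 8.09 and 10.05 on the negative arrays. Without Flattop-negative replicate 1 its difference was 0.67, and of the fits with 1 array left out it passed only in the one without Flattop-negative replicate 2 (2.63).

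Of the 16 pathway genes past the looser threshold, 5 (Pdha1, Pdk2, Aldh18a1, Hdac3 and Egln1) stayed past it with each array left out in turn and under 4 other scalings of the arrays. The list medians depended on the scaling. With arrays centred on olfactory receptor genes they were between -0.11 (acyl-CoA thioesterases) and 0.64 (hypoxia-inducible factor pathway), and those of the IGF, PDGF, ornithine, TGF-beta and further disallowed lists turned positive (0.20, 0.23, 0.08, 0.02 and 0.01). After cyclic loess the MAF, repressor and lactate medians were -0.13, -0.09 and -0.01. Without Flattop-negative replicate 2 the IGF, PDGF, ornithine and further disallowed lists had medians of 0.26, 0.22, 0.11 and 0.02. The median of the repressor and chromatin list was then -0.12.

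**Figure D5:**
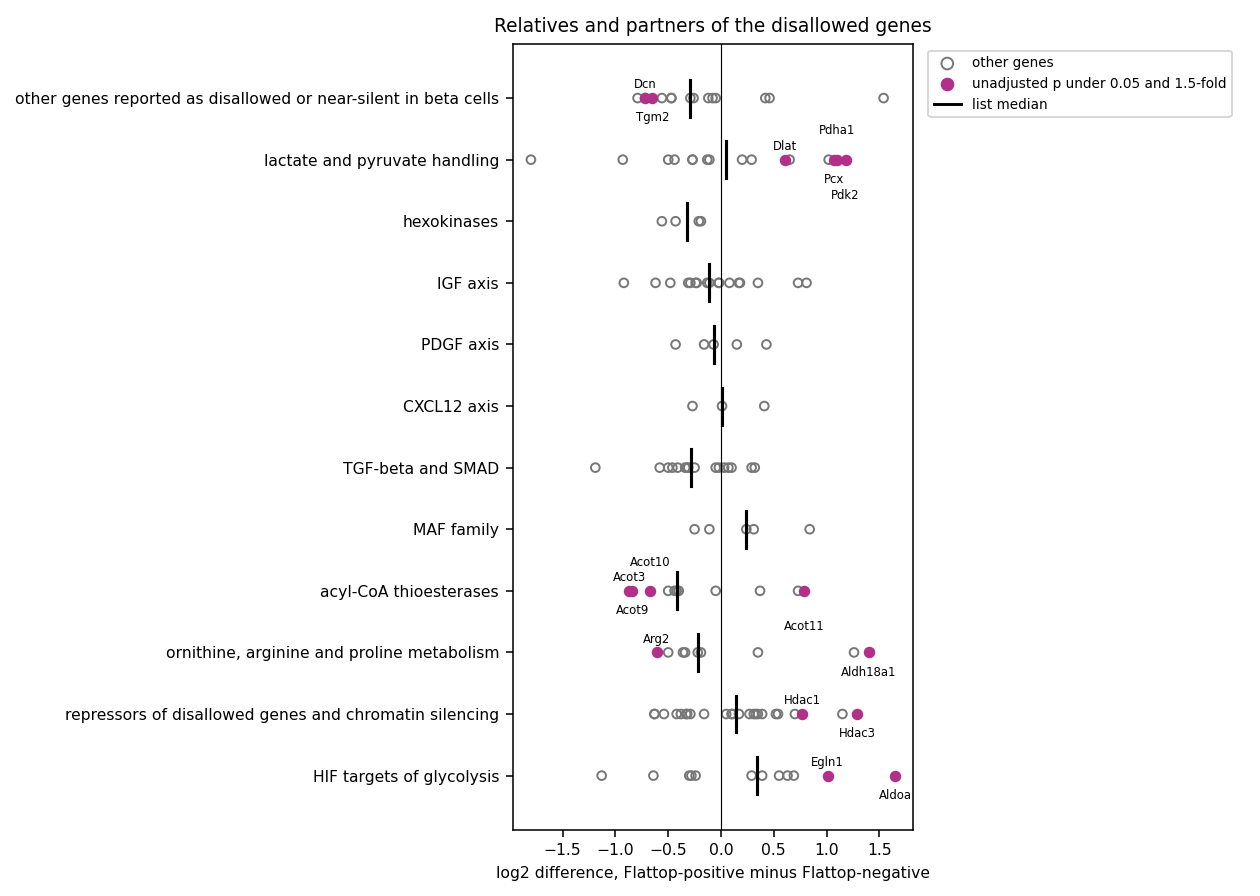
Difference in log2 signal, Flattop-positive minus Flattop-negative, of each measured gene of the pathway lists around the disallowed genes, with the list medians and the genes past an unadjusted p of 0.05 and 1.5-fold marked. Medians lie between -0.42 (acyl-CoA thioesterases) and 0.34 (hypoxia-inducible factor pathway), and no gene passed an adjusted p of 0.05.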

How the data were processed

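The values deposited by the authors are log2 signals from RMA (software: Affymetrix Expression Console, version 1.3.0.187), as listed per the submitters' processing notes. RNA had been amplified by whole transcriptome amplification before biotin labelling, per the labels' protocols. The genome build of the array was not given in the sources used here, and the promoters come from RefSeq on GRCm38.p6. Of 35556 probe sets, 21789 carry 1 symbol in the platform annotation and they name 19938 genes. Of the 10 disallowed genes only Hk1 had more than 1 such probe set. No detection calls were used, so the floor is a convention, and the number of arrays limits precision.

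All genes were fitted in limma 3.58.1 (R 4.3.3). Group was the single term, variances were moderated, tests were two-sided and p-values were adjusted by Benjamini-Hochberg over all genes. This model gives every adjusted p. The labels do not say that the pools held separate mice, so p-values measure only the spread between these pools. The members, the 12 pathway lists, the 13 marker lists and the tests were chosen with earlier results of these data known. Genes named are the 10 members, listed relatives, up to 4 genes per pathway list past the looser threshold (smallest p first), the 2 widest-ranging genes of each marker list and the 3 nearest profiles; others were chosen after their values were seen. Alternatives were other scalings, probe set rules, floors and variance models, a replicate block and each array left out. Hk1 by its RefSeq probe set, and both arrays with high immediate early signal left out, were added after seeing the data. Plots were drawn in matplotlib 3.10.9 and tables handled in pandas 2.3.3.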

Additional observations from a re-analysis of the deposited data

How the results depend on the processing

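Igfbp4, Slc16a1, Smad3, Maf and Acot7 were lower in Flattop-positive cells in every alternative that gave a value. Differences that turned sign were, with arrays centred on olfactory receptor genes, Ldha 0.14, Pdgfra 0.27, Oat 0.21 and Cxcl12 0.17; centred on their median, Pdgfra 0.04; by cyclic loess, Hk1 -0.29, Pdgfra 0.24, Oat 0.16 and Cxcl12 0.12; by repeated quantile normalisation, Hk1 -0.23, Pdgfra 0.26, Oat 0.14 and Cxcl12 0.01. Hk1 was -0.32 by its RefSeq probe set and -0.06 as a mean of probe sets, and Cxcl12 was 0.07 with array weights. With 1 array left out, Ldha ran from -0.95 (without Flattop-negative replicate 1) to 0.62 (without Flattop-negative replicate 2, and 0.04 without Flattop-positive replicate 1), Pdgfra from -0.12 to 0.06, Oat from -0.47 to 0.27 and Cxcl12 from -0.57 to 0.10. Without Flattop-positive replicate 3 and Flattop-negative replicate 2, Ldha was 0.38 and Pdgfra 0.08. The median difference, -0.30, was 0.00 when centred on olfactory receptor genes, -0.11 without those 2 arrays, and -0.74 (without Flattop-negative replicate 1) to -0.06 (without Flattop-negative replicate 2) with 1 array left out. Genes higher without overlap numbered 1, but 0 with the Hk1 RefSeq probe set, median centring or the mean of probe sets, 3 without those 2 arrays (34.7% of all genes in the same fit) and 1 to 3 with 1 left out (15.6% to 29.3%). Genes lower without overlap numbered 1, but 2 with the Hk1 RefSeq probe set (21% of all genes) or cyclic loess (12.3%), 4 with median centring (16.1%), 3 after quantile normalisation (12.7%), 6 without those 2 arrays (47.3%) and 1 to 7 with 1 left out (23.6% to 40.9%). The 7 were without Flattop-negative replicate 1 (40.9%), and there were 6 without Flattop-positive replicate 3 (28.3%). Fewer arrays must separate in these fits. Genes lower at an unadjusted p under 0.05 and 1.5-fold numbered 1 to 5 with 1 left out, 5 being without Flattop-negative replicate 1 (Slc16a1, Igfbp4, Smad3, Maf and Acot7), where 11% of all genes were called lower. No gene of the array passed an adjusted p of 0.05 in any alternative except without Flattop-negative replicate 2, where 434 did and none of the 10. Counts of the 10 genes above the floor moved with its definition. The main floor gave 6, 3 and 6 on Flattop-positive replicates 1, 2 and 3, against 4 and 7 on Flattop-negative replicates 1 and 2. At the 90th percentile the counts were 9, 7 and 7, against 6 and 8, in the same order. With the floor taken from vomeronasal receptor genes they were 9, 8 and 9, against 7 and 9. At the 99th percentile the counts fell to 3, 1 and 4, against 1 and 3. The share of all genes is given for the main floor only (57.2% to 63.1%). The counts at the other floors therefore describe the 10 genes alone. The cause of these shifts was not tested.

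The replicate numbers are shared between the groups. Deviations of same-numbered arrays correlated at 0.182 for replicate 1 and -0.137 for replicate 2, but the 2 negative arrays deviate from their mean as mirror images, so these values cannot settle whether the numbers pair the pools, and the labels do not say. With a replicate block the median was -0.51, Cxcl12 was 0.10 and Igfbp4 -1.22 (unadjusted p = 0.0121).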

Other observations

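Tgfb2, Pfkfb3 and Pdk4 were chosen after their values were seen. Several genes beside the disallowed ones were high on Flattop-positive replicate 3 and Flattop-negative replicate 2 together. Tgfb2, a ligand upstream of Smad3, had log2 signals of 3.96, 3.95 and 6.16 on the positive arrays, against 4.40 and 7.36 on the negative arrays. It passed the floor on those 2 arrays only. Cxcl1, a chemokine that attracts neutrophils, had 5.55, 5.31 and 9.36 on the positive arrays, against 5.65 and 8.53 on the negative arrays. Pfkfb3, which speeds glycolysis, had 5.36, 5.09 and 7.16, against 5.87 and 8.13. The groups overlapped for each of these genes.

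Pdk4, a pyruvate dehydrogenase kinase induced by fasting, had 4.04, 4.89 and 5.47 on the positive arrays, against 5.41 and 7.80 on the negative arrays (difference -1.80, limma adjusted p = 0.386). Flattop-negative replicate 2 stood far above the others. Pdk2 had the opposite sign, with 7.25, 7.64 and 7.01 on the positive arrays, against 5.77 and 6.46 on the negative arrays. Lyz2, the lysozyme of macrophages, reached 9.41 on Flattop-negative replicate 2 and lay between 3.36 and 4.58 on the other 4 arrays, while C1qa, another macrophage gene, was higher in positive cells, with 7.15, 6.98 and 6.02, against 4.95 and 5.84. Sst and Ppy, hormones of delta and PP cells, were at 8.08 and 8.98 on Flattop-negative replicate 1, and between 12.32 and 13.63 on the other 4 arrays.

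Marker lists not described above had median differences of -0.55 (acinar, 11 measured genes), -0.28 (endothelial, 13), -0.25 (glial, 4), -0.21 (delta, PP and epsilon, 8), -0.10 (red blood cell, 1), -0.04 (duct, 6) and 0.15 (cycling cells, 6). The olfactory receptor median of -0.27 lies within this range.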
